A study of Mus musculus with 23 samples.

Results

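Amplified total RNA of primary mouse embryonic fibroblasts was compared between cultures given 10% serum for 2 hours and cultures kept in 1% serum. It was measured on 7 of the 23 arrays of the series, 4 from serum-treated and 3 from serum-starved cells, chosen by the kind of RNA and the serum condition in the array titles. All 12422 probe sets other than the array's controls were described, of which 10833 carried 1 gene symbol and stood for 8251 genes. Values are log2(intensity + 16) after quantile normalization, so the scale has a floor of 4, and a difference of 1 is a 2-fold change except near that floor, where it is understated.

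Mouse embryonic fibroblasts are connective tissue cells grown out of dissociated embryos, here of age e14.5. Their labelled genotype was C57/BLACK6, ATF1 -/+, in both serum conditions, so that treated and starved cells alike carried 1 copy of Atf1, a transcription factor of the CREB family, and no other genotype was compared. Cells of both groups were starved for 48 hours in 1% dialyzed serum (cutoff 10000 Da). They then spent 2 hours with 200 µM 4-thiouridine, a uridine analogue that marks new RNA, and tritiated cytidine, in fresh medium with 10% serum (treated) or 1% serum (starved). The titles call the arrays biological replicates. The label protocol of every sample speaks of linear amplification, so the titles alone set amplified apart from unamplified total RNA, and the labels do not say which arrays of these kinds share a culture. In bulk RNA, a change in the number of cells of one type and a change of RNA per cell cannot be told apart.

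Fibroblasts without serum leave the cell cycle and rest. When serum returns, growth factor receptors activate the MAP kinase and STAT pathways, and immediate early genes are switched on from factors already in the cell, among them serum response factor (SRF) and the CREB family. Many of these genes code for transcription factors and for proteins that turn the signal off again, and their mRNAs are short-lived. Growth factors, enzymes of lipid mediators and genes for the cell surface follow, while genes of resting cells go down.

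Serum differences in amplified total RNA were small against the spread between arrays for most genes. Limma with Benjamini-Hochberg adjustment over 12422 probe sets called 0 (0%) at an adjusted p below 0.05. The smallest adjusted p was 0.211, for Ereg. At an unadjusted p below 0.05 there were 175 probe sets (1.41%), 118 higher and 57 lower with serum. By another count, the 4 treated arrays were all above the 3 starved arrays in 99 of 8251 genes (1.2%) and all below in 85 (1.03%). With values as deposited, whose median change over all probe sets was 0.252, these counts were 58 higher and 5 lower. Both counts thus fell without normalization, the lower one most, and the cause was not tested. Of the 99 and 85 genes, 68 and 27 also had an unadjusted p below 0.05. If all arrays were exchangeable, their 35 splits would put the treated arrays of a gene all above at a rate of 0.0286. The rate for all below would be the same. The shares of 1.2% and 1.03% lie under that rate, and 1.41% lies under the 0.05 of its cut. These counts alone thus do not tell responding genes from chance. Words such as higher and lower describe these arrays below, and no single gene passed the adjusted test.

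The arrays fell into 3 sets of alike profiles, and levels of many genes differed more between sets than with serum. Set 1 held starved array 1 and treated array 1, set 2 held starved array 2 and treated arrays 2 and 3, and set 3 held starved array 3 and treated array 4. Pearson correlations over all probe sets were 0.957 to 0.984 within a set and 0.845 to 0.919 between sets. Each set thus held 1 starved array and at least 1 treated array, and each difference could also be taken within a set. The sets were read from the same values after seeing the data, and no label says what their arrays share. With the 3 sets as a block the median residual SD of a probe set went from 0.454 to 0.244. Limma then had 798 of 12422 probe sets at an unadjusted p below 0.05, among them 174 of the 175. Such a cut gives a share of 0.05 without any effect, and 798 is not far above that. Limma called 0 after adjustment (smallest adjusted p 0.124). The median residual SD was 0.267 in unamplified total RNA and 0.364 in newly transcribed RNA.

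**Figure D1:**
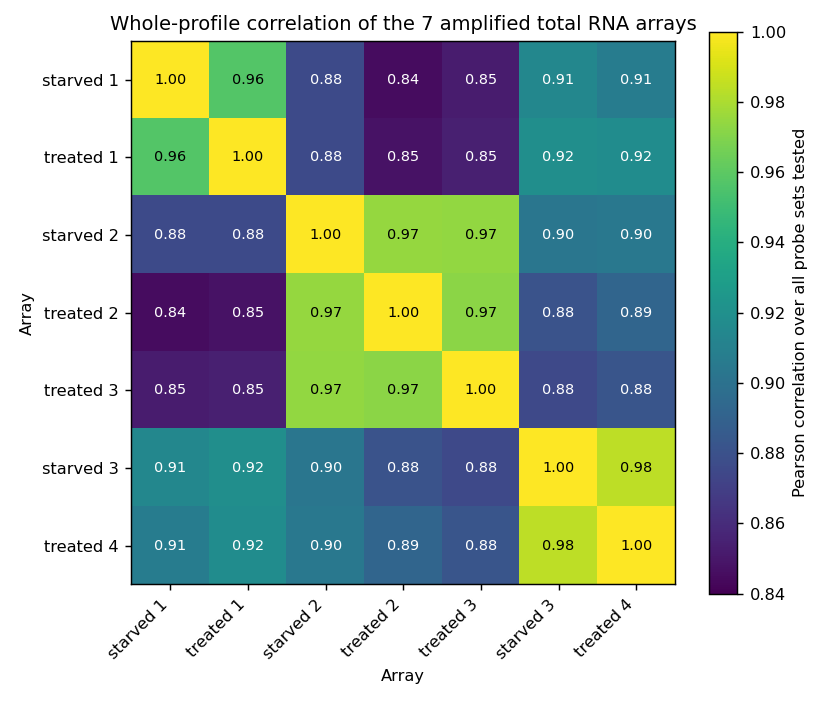
Pearson correlation of log2 values over 12422 probe sets between the 7 amplified total RNA arrays, ordered by set. Each cell is a pair of arrays and colour gives the correlation; pairs within a set lie at 0.957 or above, pairs from different sets at 0.919 or below.

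Raw signal differed widely between arrays. The median intensity before normalization was 7.4, 46.2 and 40.5 on starved arrays 1, 2 and 3 and 16.4, 41.6, 29.9 and 75.4 on treated arrays 1 to 4, and 25.3% to 67.5% of probe sets per array lay below 16. The 3' probe set of the GAPDH control exceeded the 5' one by 1.54 ± 0.48 (log2, SD, n = 3) on starved and 1.55 ± 0.75 (n = 4) on treated arrays. The treated minus starved difference was 0.012 (exact permutation test, two-sided, p = 0.971), and for the actin control it was -0.10 (p = 0.857, exact permutation test); with 35 splits of the arrays the smallest possible p is 0.0286. Fibroblast markers were bright: over 20 of them the median rank by level was at percentile 92.9 of all genes, with 11 in the top 10%. The intermediate filament gene Vim and the mesenchymal factor Prrx1 were the 2 below the median level.

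Immediate early transcription factors stood higher with serum in most cases. Members of this and all other lists were chosen with earlier results of these data known. Shares of a list against those of all genes, here and below, are thus a description and not a test. Of 33 measured (38 listed), the treated and starved arrays of 10 (30.3%) did not overlap, all 10 higher, against 1.2% of all genes, and none was lower. The median difference was 0.71, against -0.0065 over all genes, and 28 of the 33 were positive. Within sets, 23 (69.7%) were positive in each of the 3 sets, against 13.7% of all genes, and 4 (12.1%) negative in each, against 16%. Their summed normalized intensity was 9345 to 10060 on starved and 14500 to 15430 on treated arrays. Limma gave 10 of them an unadjusted p below 0.05, all higher, against 1.07% of all genes higher and 0.461% lower.

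The nuclear receptor Nr4a1 (Nur77), an orphan receptor of the early response, had the largest difference of all 8251 genes. Its level was 6.20, 7.28 and 6.48 on starved arrays 1 to 3 and 9.52, 9.23, 9.05 and 8.84 on treated arrays 1 to 4. The groups were far apart, and the difference was 2.51 ± 0.31 (SE, 95% interval 1.79 to 3.23, limma adjusted p = 0.473). It was 3.33, 1.86 and 2.36 within sets 1, 2 and 3.

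The AP-1 genes, whose proteins pair into a dimeric transcription factor, did not all separate. Fosb had 6.82, 7.58 and 6.97 on starved and 9.57, 8.49, 9.37 and 8.34 on treated arrays, a difference of 1.82 ± 0.38 with no overlap. Fosl1, a slower member of the FOS family, had 5.49, 6.78 and 5.51 against 7.15, 7.94, 8.53 and 6.96, a difference of 1.72 ± 0.49. Its lowest treated array was only just above its highest starved one. Fos itself overlapped, with 7.55, 7.39 and 8.19 on starved and 9.14, 8.33, 7.31 and 10.15 on treated arrays. Treated array 3 was the lowest of the 7 for Fos, and the difference was 1.02 ± 0.64 (1.50 without that array, 0.55 without treated array 4). A probe set of Fos near the floor gave -0.11 ± 0.18. Junb was higher by 1.06 ± 0.56 with overlap, and by 1.88 ± 1.00 in its other probe set. Jun was apart but by little, at 0.34 ± 0.19 (0.22 without treated array 4). Atf3, a stress-induced partner of AP-1, was apart at 0.71 ± 0.23.

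The zinc finger factors of the EGR family, early targets of SRF, varied more between sets than with serum. Egr1 had 9.31, 7.29 and 8.12 on starved arrays 1 to 3 and 9.60, 8.17, 8.88 and 9.04 on treated arrays 1 to 4. The groups overlapped and the difference was 0.68 ± 0.53, yet it was positive within each set (0.28, 1.23 and 0.92). Without starved array 2 it was 0.20 and without starved array 1 it was 1.21, and a probe set near the floor gave -0.36 ± 0.29. For Egr2 the starved arrays read 9.23, 6.70 and 7.88 and the treated ones 10.32, 7.86, 8.50 and 10.10. That is a difference of 1.25 ± 0.81, and 1.08, 1.48 and 2.22 within sets; without starved array 2 it was 0.63 and without starved array 1 it was 1.90.

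Other regulators of this list separated without a large difference. Ier2, a small early protein of unclear function, had 7.66, 7.90 and 7.30 on starved and 8.01, 9.70, 9.48 and 8.94 on treated arrays (1.41 ± 0.42). Myc, the growth regulator, had 5.82, 6.28 and 4.81 against 6.88, 7.68, 6.65 and 6.33 (1.25 ± 0.44). The clock genes Per1 (1.13 ± 0.37), Bhlhe40 (0.82 ± 0.22) and Nfil3 (0.68 ± 0.22) were also apart. Ier3 overlapped at 1.51 ± 0.48, since its starved array 3 (8.36) was above its treated array 1 (8.29). Nr4a2, a close relative of Nr4a1, was the lowest of the list at -0.38.

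**Figure D2:**
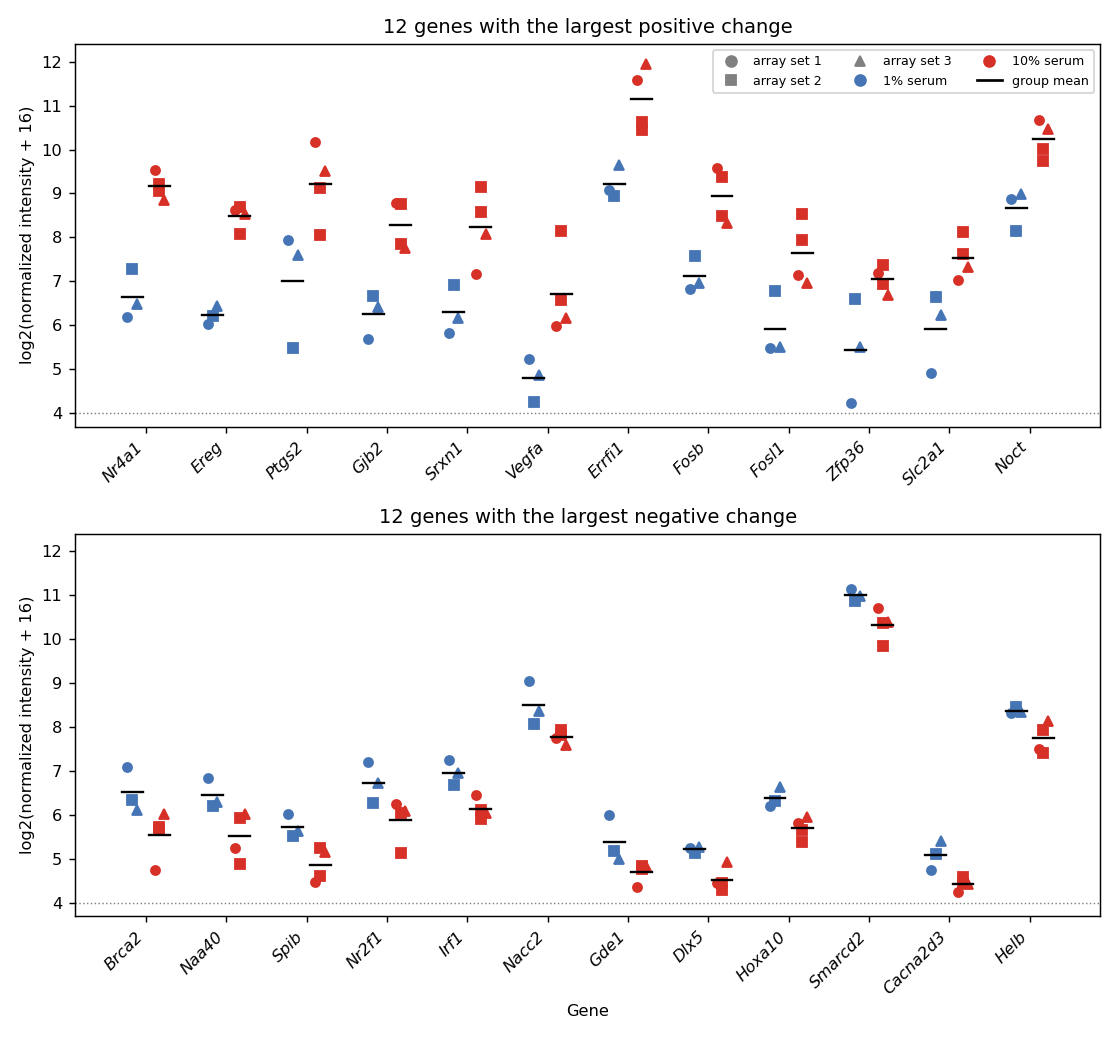
log2(normalized intensity + 16) on each array for the 12 genes with the largest positive and the 12 with the largest negative difference among those whose groups do not overlap and whose unadjusted p was below 0.05. Blue is 1% serum, red 10% serum, marker shape the array set, black bars group means and the dotted line the scale's floor at 4; differences of the upper genes run from 1.56 to 2.51 and of the lower genes from -0.98 to -0.63.

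Sequences upstream of 5 of these genes are shown because the cells carry 1 copy of Atf1, whose family binds the cyclic AMP response element (CRE), and because SRF binds the CArG box. They come from RefSeq, build GRCm38.p6, and are given 5′ to 3′ on the gene's strand. Capitals mark the CRE core TGACG on either strand (written CGTCA on the other), including the overlapping copies that form the full palindrome TGACGTCA in Dusp1, and the CArG box in Zfp36. All but the Fos and Dusp1 windows end at the base before the listed start.
Nr4a1, chr15:101266746-101266845, + strand: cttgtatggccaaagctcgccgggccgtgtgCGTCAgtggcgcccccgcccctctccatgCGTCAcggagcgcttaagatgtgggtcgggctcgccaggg
Fosb, chr7:19310046-19310145, - strand: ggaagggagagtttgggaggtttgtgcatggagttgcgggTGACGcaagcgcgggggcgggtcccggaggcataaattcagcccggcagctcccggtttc
Fos, chr12:85473750-85473849, + strand: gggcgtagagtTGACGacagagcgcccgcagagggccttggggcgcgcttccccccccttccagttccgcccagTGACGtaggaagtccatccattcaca
Dusp1, chr17:26508573-26508672, - strand: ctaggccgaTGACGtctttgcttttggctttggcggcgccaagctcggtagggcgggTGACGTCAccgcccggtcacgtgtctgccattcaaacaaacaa
Zfp36, chr7:28379229-28379328, - strand: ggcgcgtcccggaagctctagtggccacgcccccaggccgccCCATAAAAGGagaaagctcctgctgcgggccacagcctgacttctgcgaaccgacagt

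TGACG began 69 and 40 bases before the start in Nr4a1, 60 in Fosb, and 129 and 66 in Fos. The full CRE of Dusp1 began 143 bases before its start and the CArG box of Zfp36 began 58 before. In the 250 bases upstream of a start, on both strands, TGACG was found in 15 of 22 immediate early factors with a listed promoter (68.2%), in 9 of 22 feedback regulators (40.9%) and in 1860 of 6572 measured genes (28.3%). TGACGTCA, which contains that core, was found in 1 of 22 (4.55%), 4 of 22 (18.2%) and 177 of 6572 (2.69%). The CArG box was found in 1 of 22 (4.55%), 1 of 22 (4.55%) and 113 of 6572 (1.72%). These are counts of letters in a short window of genes chosen with results known; they show no binding.

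Feedback regulators, which quench the signals that induced them, were the other list with many separated genes. Of 28 measured (36 listed), 8 (28.6%) were apart and higher, against 1.2% of all genes, and none was lower. The list's median difference was 0.67, 25 of 28 members were positive and 19 (67.9%) were positive in each set. Their summed intensity was 7432 to 7770 on starved and 13490 to 15270 on treated arrays. Limma gave 10 an unadjusted p below 0.05, all higher (1.07% of all genes).

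Errfi1 (MIG6), an inhibitor of the EGF receptor, had 9.08, 8.94 and 9.65 on starved and 11.58, 10.45, 10.62 and 11.95 on treated arrays. The difference was 1.93 ± 0.42, and 2.14 ± 0.32 in its other probe set, also with no overlap. Dusp1, a phosphatase that switches off MAP kinases, was also apart: 8.49, 7.76 and 8.04 against 9.49, 9.59, 9.44 and 9.45, or 1.39 ± 0.21. Its 4 treated arrays, from all 3 sets, lay between 9.44 and 9.59.

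Both separated members of the mRNA decay list were also among the 12 higher genes. Noct, a relative of deadenylases that is named for its nightly expression, had 8.87, 8.16 and 8.98 on starved and 10.68, 10.02, 9.74 and 10.47 on treated arrays (1.56 ± 0.32). One other probe set gave 1.55 ± 0.40 and another -0.06 ± 0.81. Zfp36 (tristetraprolin), which binds AU-rich elements and brings mRNAs to decay, had 4.24, 6.61 and 5.50 against 7.18, 6.95, 7.38 and 6.70. Its treated arrays agreed closely while the starved ones spread from near the floor upwards, so that 1.60 ± 0.52 became 1.00 without starved array 1 and 2.18 without starved array 2. Over the whole list of 15 mRNA decay regulators 2 were apart and higher (13.3%, against 1.2% of all genes), Zfp36 and Noct. The list's median was -0.13 and 6 of 15 were positive. Lists share members, and Zfp36 and Noct also count among the 8 separated feedback regulators.

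Socs3, an inhibitor of cytokine signalling, had 5.96, 7.13 and 7.07 on starved and 7.44, 8.17, 7.89 and 8.20 on treated arrays (1.20 ± 0.35; other probe set 0.90 ± 0.51, overlapping). Cish was apart at 1.19 ± 0.32 and Smad7, the inhibitor of TGF-beta signalling, at 0.77 ± 0.23. Socs2 overlapped between groups at 1.25 ± 0.44 but differed by over 1 within each set. Phlda1 (1.32 ± 0.44) was apart as well, while Nfkbia, the inhibitor of NF-kB, stood at 0.14 ± 0.27 with overlap.

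Among 34 secreted growth factors and cytokines (40 listed) 2 were apart and higher (5.88%, against 1.2% of all genes), none lower, and the median was 0.26. Ereg, epiregulin, a ligand of the EGF receptor, had little spread within either group: 6.03, 6.21 and 6.45 on starved and 8.62, 8.69, 8.07 and 8.54 on treated arrays. Its difference was 2.25 ± 0.22 (95% interval 1.73 to 2.76), and 2.58, 2.17 and 2.09 within sets. A dimmer probe set of Ereg, with a mean of 4.25 on starved arrays, gave 0.06 ± 0.22. Vegfa, the angiogenic growth factor, had 5.25, 4.26 and 4.88 against 5.99, 8.15, 6.58 and 6.17. Treated array 2 was far above the other 3 for Vegfa, and the difference of 1.93 ± 0.55 was 1.45 without it.

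Further ligands overlapped between groups, and of these Hbegf and Inhba were higher by over 1 within each set. Hbegf, another ligand of the EGF receptor, had 8.05, 7.04 and 8.78 on starved and 9.41, 8.66, 9.97 and 10.51 on treated arrays, a difference of 1.68 ± 0.55 and of 1.36, 2.27 and 1.72 within sets. Inhba, the activin A subunit, had 6.41, 6.11 and 9.16 against 7.87, 8.68, 8.08 and 10.61. Starved array 3 and treated array 4, which form set 3, were the highest of their groups, so the pooled 1.58 ± 0.94 hid within-set differences of 1.46, 2.27 and 1.45; without treated array 4 it was 0.98, without starved array 2 it was 1.02 and without starved array 3 it was 2.55. The cytokine Il11 was near the floor on both arrays of set 1 (4.21 and 4.21), and had 4.75 against 6.96 and 6.52 in set 2 and 4.25 against 5.63 in set 3. Il6 stayed at 4.05 to 4.80 on all 7 arrays.

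Enzymes of prostaglandin and hyaluronan synthesis formed a small list with 3 of 12 apart and higher (25%, against 1.2% of all genes), none lower, and a median of 0.21. Ptgs2 (COX-2), the inducible prostaglandin synthase, had 7.95, 5.50 and 7.61 on starved and 10.17, 9.12, 8.04 and 9.51 on treated arrays. Starved array 2 was far below the other starved arrays, and treated array 3 only just above starved array 1. The difference was 2.19 ± 0.72, or 1.43 without starved array 2, and 2.22, 3.08 and 1.91 within sets. Has1, a hyaluronan synthase, had 5.31, 5.36 and 5.53 against 5.58, 6.53, 6.51 and 7.48 (1.12 ± 0.42), with 0.27 in set 1 and 1.95 in set 3. Cd44, the hyaluronan receptor, was apart at 0.92 ± 0.38, and its other probe sets, both near the floor, gave 0.043 and -0.10.

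Genes that act around the cell included 2 of 25 apart and higher (8%, against 1.2% of all genes) and none lower, with a median of 0.21. Relative to all genes the median was 0.215, and -0.02 without treated array 1. Plaur, the urokinase receptor, had 6.86, 7.36 and 6.77 on starved and 7.68, 9.08, 8.74 and 8.09 on treated arrays (1.40 ± 0.37). Tgfbi, a matrix protein induced by TGF-beta, had 7.41, 7.19 and 7.12 against 7.46, 8.93, 8.21 and 8.25 (0.97 ± 0.34); the arrays of set 1 differed by only 0.052. Its other probe set gave -0.21 ± 0.17. The matricellular genes Ccn1 (CYR61; 1.49 ± 0.75) and Ccn2 (CTGF; 0.76 ± 0.36) overlapped, and for Ccn1 the difference without treated array 2 was 0.93; for Ccn2 it was 0.47 without starved array 1.

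Single genes of transport, junctions and redox defence reached the same size as the regulators. Gjb2 (connexin 26), a gap junction protein, had 5.70, 6.66 and 6.41 on starved and 8.78, 8.76, 7.86 and 7.75 on treated arrays (2.03 ± 0.37). Slc2a1 (GLUT1), the glucose transporter, had 4.91, 6.64 and 6.23 against 7.03, 8.12, 7.62 and 7.33 (1.60 ± 0.46), and was the 1 gene of 14 in glycolysis and glucose transport that was apart (7.14%, against 1.2% of all genes, higher). Hexokinase 2, Hk2, overlapped at 0.83 ± 0.39. Srxn1 (sulfiredoxin), which repairs oxidized peroxiredoxins, had 5.84, 6.92 and 6.17 against 7.18, 9.15, 8.57 and 8.08 (1.93 ± 0.49), while a dimmer probe set gave -0.47 ± 0.38. In the antioxidant list, Txnrd1 (0.77 ± 0.22) and Gclm (0.41 ± 0.22, or 0.26 without treated array 1) were also apart, so 3 of 24 were (12.5%, against 1.2% of all genes, higher), with 0 lower and a median of 0.17.

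Targets of SRF and the actin cytoskeleton gave few separated genes. Of 27 measured, 1 was apart and higher (3.7%, against 1.2% of all genes) and 1 apart and lower (3.7%, against 1.03%), with a median of 0.20 and 20 positive. The higher one was Fhl2, a LIM domain coactivator, at 8.78, 8.82 and 8.62 on starved and 9.14, 9.89, 9.20 and 9.10 on treated arrays (0.59 ± 0.24). The lower one was Flna, filamin A, whose probe set lay near the floor at 4.14 to 4.78 (-0.43 ± 0.19). The largest difference in the list was 1.73, in a gene whose groups overlapped.

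Actin itself followed the array sets. Actb had 11.41, 6.90 and 11.04 on starved and 11.34, 6.98, 7.07 and 10.82 on treated arrays, so the 3 arrays of set 2 were all near 7 and the other 4 near 11. Within sets its differences were -0.06, 0.13 and -0.21, and the pooled value was -0.73 ± 1.56. Acta2, smooth muscle actin, was at 10.97 to 11.86 on all arrays (-0.072 ± 0.26). Tpm1 (0.17 ± 0.26) and Vcl (0.30 ± 0.23), a tropomyosin and vinculin, overlapped as well, while a dimmer probe set of Vcl was apart and higher (0.73 ± 0.29).

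Genes of resting cells were lower on balance, with large differences only in some sets. Of 27 growth arrest and starvation genes, 1 was apart and lower (3.7%, against 1.03% of all genes) and none higher; the median was -0.17. In 12 of the 27 (44.4%) the difference was negative in each set, against 16% of all genes. The separated gene was Txnip, a thioredoxin inhibitor, at 6.96, 7.75 and 6.91 on starved and 6.44, 6.91, 6.55 and 6.60 on treated arrays. Treated array 2 and starved array 3 were level to 2 decimals, and the difference was -0.58 ± 0.26, or -0.31 without starved array 2 (other probe set 0.084 ± 0.17).

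Ccng2, a cyclin of non-dividing cells, had 8.22, 7.16 and 8.15 on starved and 7.62, 5.46, 5.61 and 7.43 on treated arrays. It was lower within each set (-0.60, -1.62 and -0.72), and the groups overlapped because starved array 2 was below treated arrays 1 and 4 (-1.31 ± 0.64). Gas1, a growth arrest gene, had 9.83, 10.27 and 11.28 against 9.82, 8.36, 8.96 and 10.56. It did not differ in set 1 (-0.01) but was lower by 1.61 in set 2 and by 0.73 in set 3. The pooled difference was -1.04 ± 0.59, or -0.63 without starved array 3 and -0.68 without treated array 2. The inhibitor Cdkn1b (p27) stood at 0.081 ± 0.32 (other probe set -0.29 ± 0.27), both overlapping.

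Among 22 genes of G2 and mitosis 2 were apart and lower (9.09%, against 1.03% of all genes) and none higher, neither with an unadjusted limma p below 0.05. The median was -0.22 and 2 of 22 were positive. Aurkb, the kinase of chromosome segregation, had 7.72, 6.93 and 7.30 on starved and 6.78, 6.70, 4.99 and 6.65 on treated arrays. Treated array 3 was far below the rest for Aurkb, and the difference of -1.04 ± 0.48 was -0.61 without it. Kif23, a motor protein of cell division, was at -0.40 ± 0.21. In the list of G1 and S phase, 0 of 27 were apart in either direction, 7 were positive, the median was -0.14 and Ccnd1, cyclin D1, stood at -0.035 ± 0.54. Relative to all genes the median of G2 and mitosis genes was -0.212, and -0.0728 without starved array 2 and -0.369 without starved array 1. That of G1 and S phase genes was -0.129, and 0.0425 without treated array 1.

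**Figure D3:**
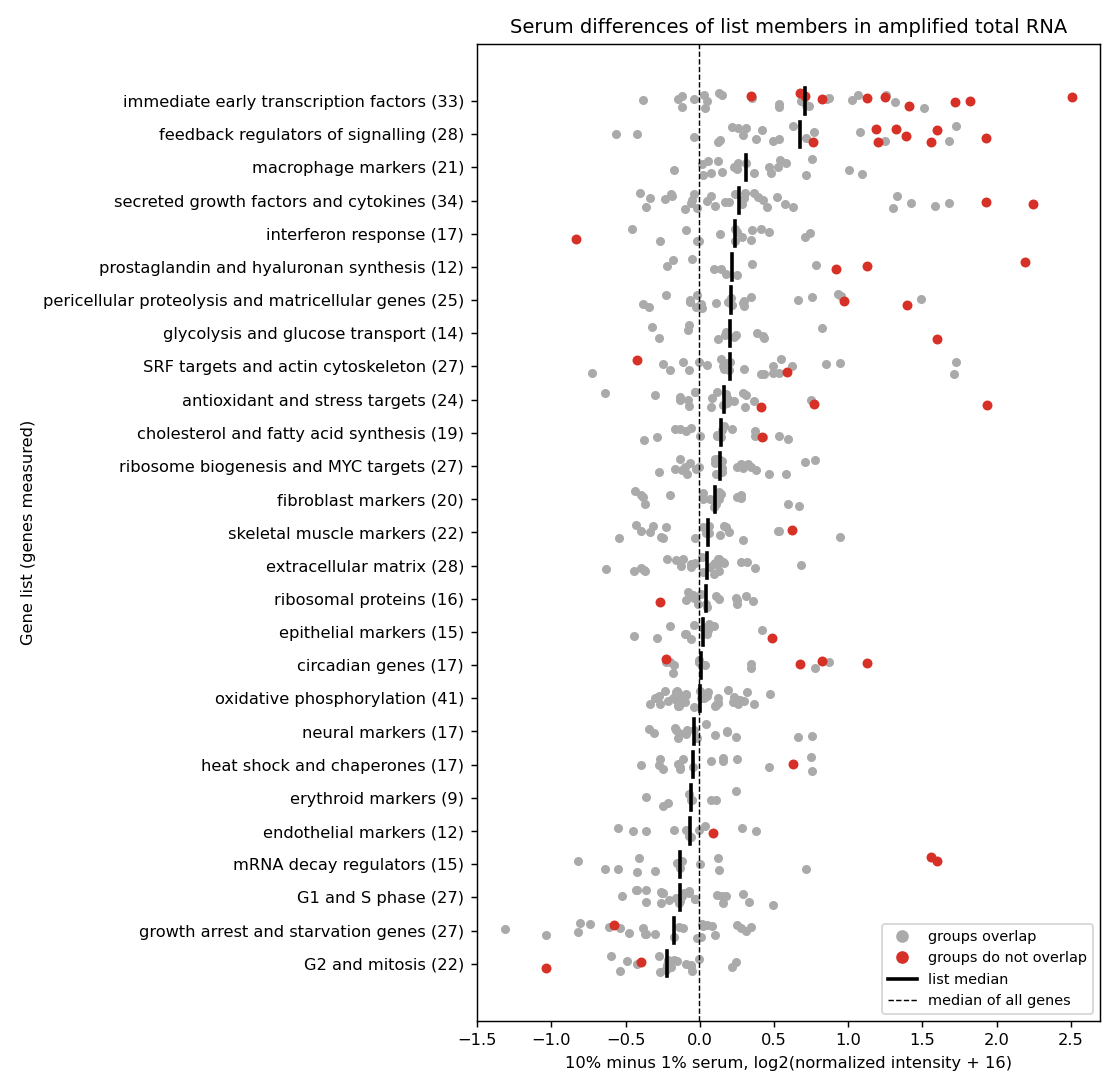
Treated minus starved difference of each measured gene, by list; each point is a gene, red where the groups do not overlap, black bars are list medians and the dashed line is the median of all genes. Immediate early factors (median 0.71) and feedback regulators (0.67) lie farthest to the right, G2 and mitosis genes (-0.22) and growth arrest genes (-0.17) farthest to the left.

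Clock genes differed in direction. Of 17 circadian genes 3 were apart and higher (17.6%, against 1.2% of all genes), Per1, Bhlhe40 and Nfil3. A further 1 was apart and lower (5.88%, against 1.03% of all genes), the kinase Csnk1d at -0.23 ± 0.15. The other 3 probe sets of Csnk1d ran from -0.55 to 0.43 with overlap. Per1, a repressor of the clock that serum is known to induce, had 4.51, 5.52 and 4.98 on starved and 5.65, 6.42, 6.75 and 5.70 on treated arrays. The list's median was 0.0099. Per1, Bhlhe40 and Nfil3 also count among the 10 separated immediate early factors.

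Metabolic and housekeeping lists had at most 1 separated gene each. In cholesterol and fatty acid synthesis 1 of 19 was apart and higher (5.26%, against 1.2% of all genes), Fdft1, squalene synthase, at 0.42 ± 0.16, and the list's median was 0.14. Dnajb4 was the 1 of 17 heat shock genes and chaperones apart and higher (5.88%, against 1.2% of all genes), at 0.63 ± 0.33, or 0.33 without starved array 2. Ribosome biogenesis had 0 of 27 apart, with a median of 0.14 and the polyamine enzyme Odc1 at 0.33 ± 0.50. Oxidative phosphorylation had 0 of 41 apart and a median of 0.0021. Of 16 ribosomal proteins 1 was apart and lower (6.25%, against 1.03% of all genes), Rps29 at -0.27 ± 0.16 (-0.18 without starved array 1), with 0.41 ± 0.20 in its other probe set, which was apart and higher. Extracellular matrix genes had 0 of 28 apart; Col1a1, the main collagen chain, read 11.66, 11.80 and 9.58 on starved and 11.43, 11.75, 11.87 and 9.48 on treated arrays. That probe set was lower in set 3 in both groups, while the other one read 11.38, 7.72 and 11.62 against 11.62, 7.92, 8.38 and 11.19 and was lower in set 2.

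Ranks by level describe probe sets, which differ in brightness for reasons other than RNA amount: Vim, abundant in fibroblasts, was at percentile 25.3. Over 21 macrophage markers the median rank by level was at percentile 81.9, with 6 in the top 10%. A further 7 of the 21 lay below the median level of all genes, among them Itgam (percentile 12.6), Aif1 (15.5) and Ptprc (48.5). Medians were at percentiles of 16.4 to 30.4 for endothelial, epithelial, skeletal muscle, neural and erythroid lists, none of which had a marker in the top 10%. The summed intensity of the macrophage markers was 6165 to 17170 on starved and 6497 to 17890 on treated arrays. Csf1r, the receptor that defines macrophages, had 7.14, 9.97 and 7.45 on starved and 7.14, 10.01, 10.36 and 8.25 on treated arrays, highest on the 3 arrays of set 2; its dimmer probe set, at 7.22, 4.84 and 5.58 against 7.17, 5.15, 4.27 and 5.80, was not. The complement gene C1qa read 6.69, 9.90 and 6.90 against 6.60, 10.22, 10.36 and 8.51. Of the 21 markers 20 had positive differences (median 0.31), 0 were apart, and 5 were positive in each set. Set 2 holds 2 of 4 treated and 1 of 3 starved arrays, and the part of macrophage RNA in the differences of the immediate early, feedback and cytokine lists was not tested.

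In the other marker lists few genes were apart, all near the floor or dim. They were Krt19 (0.49 ± 0.20) of 15 epithelial markers (6.67%) and Tnni1 (0.62 ± 0.27) of 22 skeletal muscle markers (4.55%). Cdh5 (0.087 ± 0.15) of 12 endothelial markers (8.33%) was apart as well. Each was higher, against 1.2% of all genes. The other probe set of Krt19, near the floor, gave -0.014 ± 0.15 with overlap. No neural, erythroid or fibroblast marker was apart.

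Genes on the lower side had smaller differences than those on the higher side. The 12 with the largest ones among separated genes with an unadjusted limma p below 0.05 ran from -0.98 to -0.63, against 1.56 to 2.51 for the 12 higher genes. With values as deposited the 12 lower genes ran from -0.51 (Cacna2d3) to -0.031 (Helb), and none had an unadjusted limma p below 0.05 (smallest 0.186). Irf1, a transcription factor of the interferon response, had a similar difference in each set. It read 7.25, 6.68 and 6.97 on starved and 6.46, 6.11, 5.90 and 6.04 on treated arrays, a difference of -0.84 ± 0.22 and of -0.78, -0.68 and -0.93 within sets. It was the 1 gene of 17 in the interferon list that was apart (5.88%, against 1.03% of all genes, lower), while that list's median was 0.24.

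Brca2, a gene of DNA repair, had the largest of these differences, and it came mostly from set 1. It read 7.10, 6.35 and 6.12 on starved and 4.75, 5.66, 5.72 and 6.02 on treated arrays, or -2.34, -0.66 and -0.09 within sets 1, 2 and 3 (-0.98 ± 0.37). Without starved array 1 it was -0.69, which is also the value closest to 0 when single arrays were left out. Naa40, an N-terminal acetyltransferase (-0.92 ± 0.34), Spib, a lymphoid ETS factor (-0.85 ± 0.27), and Gde1, a phosphodiesterase (-0.69 ± 0.28; -0.39 without starved array 1), also had their largest difference in set 1.

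Nr2f1 (COUP-TFI), an orphan nuclear receptor, had 7.20, 6.27 and 6.72 on starved and 6.25, 6.06, 5.14 and 6.10 on treated arrays (-0.84 ± 0.35). Treated array 1 was only just below starved array 2 for it. The homeobox genes Dlx5 (-0.68 ± 0.20) and Hoxa10 (-0.68 ± 0.21) were lower in each set. Smarcd2, a subunit of the SWI/SNF chromatin remodeler (-0.67 ± 0.24), and Helb, a DNA helicase (-0.63 ± 0.23), followed, with Nacc2 (-0.72 ± 0.26; -0.44 without starved array 1) and the calcium channel subunit Cacna2d3 (-0.66 ± 0.21). For Smarcd2 the other probe sets gave 0.22, -0.041 and -0.15, and for Nacc2 0.10 and -0.11, all overlapping. The other probe set of Spib gave -0.083 ± 0.18 and that of Helb -0.38 ± 0.27, also overlapping.

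Taking the difference within sets added genes whose groups overlapped. The difference exceeded 1 in each of the 3 sets in 19 genes (0.23% of 8251), and it was below -1 in each set in 1 gene (0.0121%). Besides genes given above, the 19 included Sphk1, a kinase that makes sphingosine 1-phosphate, and Slc35e4, a putative carrier. They also included F3, tissue factor, the starter of blood clotting, which was apart as well (1.40 ± 0.31), at 8.50, 8.18 and 8.89 on starved and 10.30, 9.95, 9.27 and 10.18 on treated arrays. Dusp1 was just inside the limit, with 1.00 in its smallest set, and Slc20a1, a phosphate transporter, just outside it with 0.94.

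The single gene below -1 was Snai2 (Slug), a repressor of epithelial genes in mesenchymal cells. It read 11.80, 9.18 and 11.19 on starved and 10.75, 8.04, 8.09 and 10.09 on treated arrays, so its level in set 2 was well below that in the other sets in both groups. Within sets 1, 2 and 3 its difference was -1.05, -1.11 and -1.10. Pooled over groups it was -1.48 ± 0.90, and with the sets as a block it was -1.09 ± 0.13 (limma adjusted p = 0.169).

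**Figure D4:**
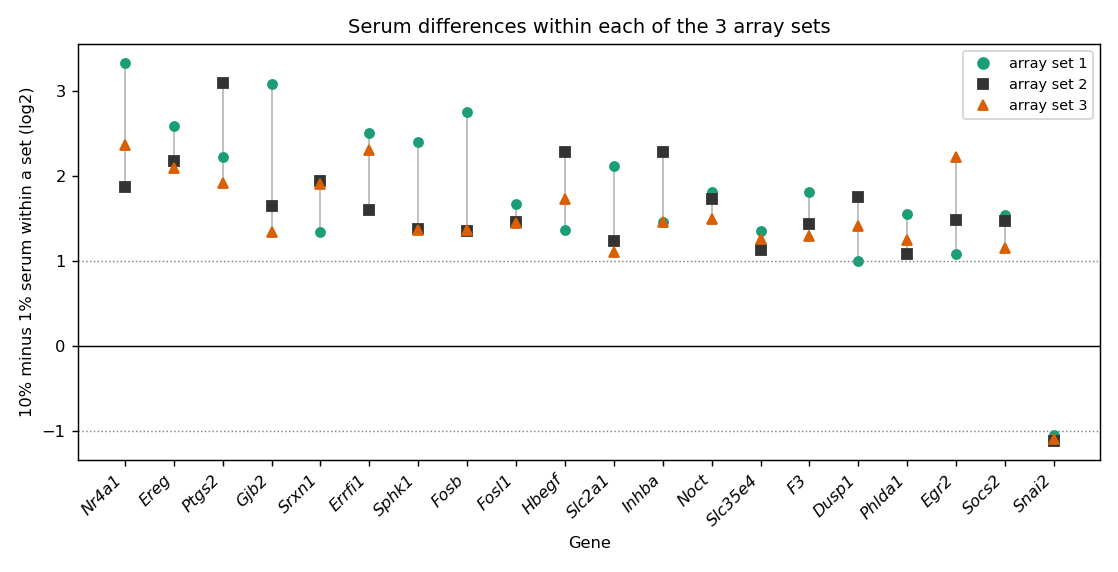
Treated minus starved difference (log2) within each of the 3 array sets for the 19 genes above 1 and the 1 gene below -1 in every set; dotted lines mark 1 and -1. Symbols are the sets, and lines join the lowest and highest of a gene; Ereg spans 2.09 to 2.58, while Snai2 lies between -1.11 and -1.05.

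The block narrowed the error of several genes. For Ptgs2 the difference went from 2.19 ± 0.72 to 2.47 ± 0.33, for Inhba from 1.58 ± 0.94 to 1.78 ± 0.24 and for Egr2 from 1.25 ± 0.81 to 1.58 ± 0.26. Socs2 went from 1.25 ± 0.44 to 1.39 ± 0.16 and Noct from 1.56 ± 0.32 to 1.68 ± 0.15. None of these passed an adjusted p of 0.05, with the smallest at 0.124 for Ereg and Noct (limma, Benjamini-Hochberg). Vegfa, whose difference was largest in set 2 (3.10), kept an error of 0.55.

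Amplification did not give a response that could be told from that of the other kinds of RNA at this number of arrays. A test of the difference between the responses, as an interaction in limma, called 0 of 12422 probe sets against unamplified total RNA (0%; 141 at an unadjusted p below 0.05) and 0 against newly transcribed RNA (0%; 201 unadjusted). The intervals were wide, so these counts do not show that the responses are alike. For Nr4a1 the difference was 2.40 in unamplified total and 2.03 in newly transcribed RNA; the amplified response minus these was 0.11 (95% interval -0.81 to 1.03) and 0.48 (-0.58 to 1.54). For Ptgs2 the intervals ran from -2.09 to 1.26 and from -2.17 to 2.80.

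All 12 higher genes were positive in both other kinds of RNA, with 1.07 to 2.61 in unamplified total and 0.87 to 2.56 in newly transcribed RNA. Of all 8251 genes, 4690 had the same direction in amplified and unamplified total RNA, and 4999 in amplified total and newly transcribed RNA. They were chosen by their size in amplified RNA, so their values there are a description. In newly transcribed RNA the lowest were Noct (0.87) and Errfi1 (1.01); the amplified response exceeded them by 0.69 (95% interval -0.041 to 1.42) and 0.92 (-0.18 to 2.03). Fosb was highest in newly transcribed RNA at 2.56, and the amplified response minus this was -0.74 (95% interval -2.02 to 0.54).

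Of the 12 lower genes, all were negative in both other kinds, against the shares of all genes with the same direction given above. They were chosen for a large, separated difference in amplified RNA, so values nearer to 0 elsewhere come with the choice and are a description. Their median was -0.70 in amplified, -0.26 in unamplified total and -0.38 in newly transcribed RNA. Irf1 had the same size in all (-0.84, -0.88 and -0.80). Nr2f1 was at -0.48 and -1.34, and Hoxa10 at -0.35 and -0.92. Gde1, a gene just above the floor, was at -0.05 and -0.01, and Nacc2 and Helb at -0.07 and -0.05 in unamplified total RNA. The groups of 68 and 27 were chosen the same way: the 68 higher genes had a median of 0.90 in amplified, 0.74 in unamplified total and 0.76 in newly transcribed RNA, and the 27 lower genes had -0.60, -0.21 and -0.26. Of the 68, 58 were positive in unamplified total and 58 in newly transcribed RNA. Of the 27, 22 and 22 were negative.

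**Figure D5:**
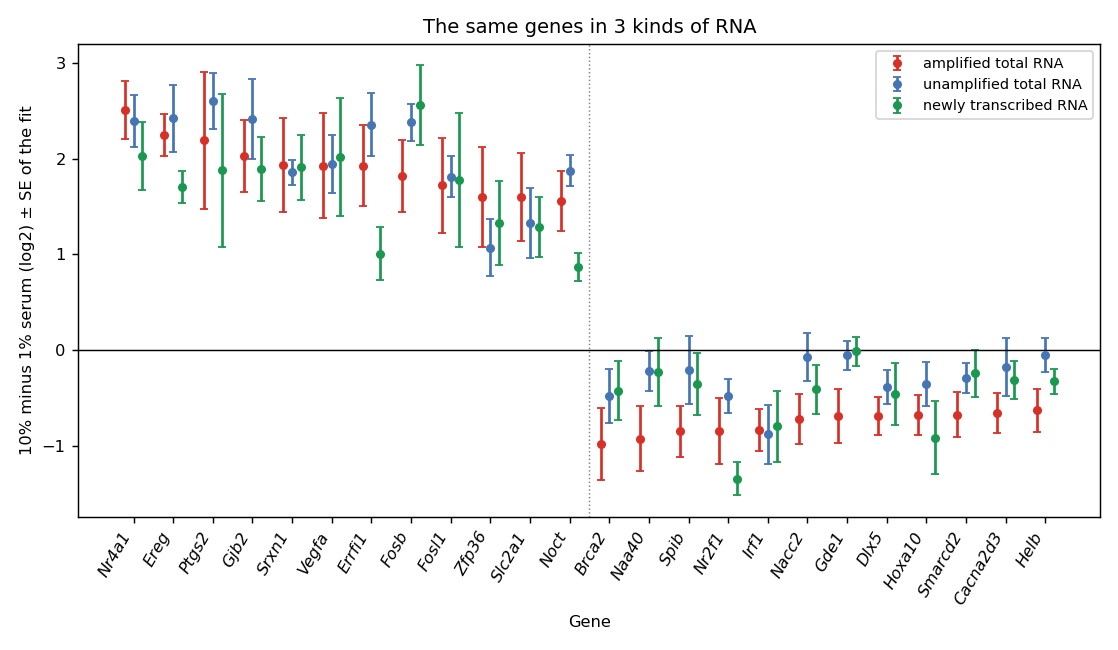
Serum difference (log2) ± SE of the limma fit in amplified total (red), unamplified total (blue) and newly transcribed RNA (green) for the 12 higher and 12 lower genes, chosen on the red values. The higher genes lie at 0.87 or above in all 3 kinds, and those of the lower genes all lie below 0.

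The 5 genes with the lowest interaction p in each comparison included several near the floor. Against unamplified total RNA they were Krt81, a hair keratin (-0.17 ± 0.19 in amplified, 0.71 ± 0.13 in unamplified RNA), the cytokine Il3 (0.58 ± 0.18 and -0.17 ± 0.14), Pou3f3 (0.41 and -0.45), the glutamate receptor subunit Gria4 (0.52 and -0.15) and the mitochondrial kinase Pink1 (0.51 and -0.31). Il3, Pou3f3, Gria4 and Pink1 lay between 4.09 and 5.12 on all 7 amplified arrays, near the floor. Against newly transcribed RNA they were the adhesion gene Nrcam (0.88 and -0.45), Cox20 (-0.41 and 0.58), Tpm3 (-0.0048 and 1.08), Sstr4 (-0.17 and 0.50) and Strn4 (-0.84 and 0.42). Tpm3, a tropomyosin, was level in amplified RNA at 7.39 to 7.79 on all arrays and higher with serum in newly transcribed RNA. Its other probe set gave -0.83 ± 0.41 in amplified RNA. None of the 10 passed the adjusted test.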

How the data were processed

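The 7 arrays of amplified total RNA were grouped by their titles; arrays of the other 2 kinds served for comparison. The authors deposited 1 intensity, on a linear scale, for each probe set of an Affymetrix array; how they summarized and scaled probes is not given in the sources used here. Labelling used reverse transcription, linear amplification and T7 transcription with biotin, per the labels' protocols. All 23 arrays were quantile normalized together and log2(value + 16) was taken; 66 control probe sets were left out of tests. Names came from the platform annotation, checked through Entrez identifiers against RefSeq names (GRCm38.p6; 0 changed): 10833 probe sets had 1 symbol, 396 several and 1193 none listed. The brightest probe set stood for a gene. Two-sided tests came from linear models of limma 3.58.1 (R 4.3.3) with eBayes and Benjamini-Hochberg adjustment. The code was checked on simulated data with independent errors of equal spread and no array sets. That check does not show how the fit behaves with the sets and spread seen here. Errors are the fit's SE. The number of arrays limits precision.

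Same-numbered starved and treated arrays deviated together for numbers 1 and 2 (r = 0.694 and 0.765) but not 3 (-0.468). Starved array 3 deviated with treated array 4 (r = 0.788), and starved array 2 also with treated array 3 (0.745). Since the numbers did not match in all arrays, the fit was unpaired. Genes named by rule were the 12 higher and 12 lower separated genes with the largest change at an unadjusted p below 0.05, up to 3 separated genes per list, 43 fixed genes (39 measured) and the 5 lowest p-values of each interaction; other names were chosen after their values were seen. Members and the 27 lists were chosen with earlier results of these data known. Alternatives changed the scaling, pseudocount, level filter, blocks, covariates, weights and arrays left out.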

Additional observations from a re-analysis of the deposited data

Results flagged for a closer look

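Among 26 groups of 4 treated arrays tested for a value far from the rest, 2 stood out. Chance gives about 1 in 20 per group, so it can give such flags among 26 groups. The groups did not cover every gene named above, such as Aurkb, with treated array 3 at 4.99 against 6.65 to 6.78 on the others. For Gde1, a phosphodiesterase, treated array 1 read 4.37 against 4.78 to 4.84 on the other 3, and this gap was 0.878 of the group's range. For the actin control, the 3' minus 5' difference was 1.40 on treated array 2 against 2.41 to 2.58 on the other treated arrays, a gap of 0.856 of the range.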

How the results depend on the processing

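Limma called 0 probe sets after adjustment under every setting run, for the serum response and for both differences between kinds of RNA. Counts at an unadjusted p below 0.05 moved with the setting. For the serum response (175) they were 36 with values as deposited, 350 with 2 and 798 with 3 array sets as a block (the latter added after seeing the data), 279 with the GAPDH 3' minus 5' difference as a covariate, 364 with array weights, and 124 to 291 with 1 array left out, highest without starved array 2. Against unamplified total RNA (141) they were 20, 225, 488 and, with array weights, 592, and 110 to 374 with 1 array left out. Against newly transcribed RNA (201) they were 79, 421, 1083 and 457, and 144 to 362. With the replicate number as a block the 3 counts were 508, 697 and 712, although same-numbered arrays deviated together for numbers 1 and 2 but not 3. Genes whose groups do not overlap numbered 58 higher and 5 lower with values as deposited.

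Directions turned in genes with small differences. With values as deposited Acta2 was 0.57, Ccnd1 0.59, Kif23 0.11, Rps29 0.090 and the GAPDH 3' minus 5' difference between groups -0.0789. With each array scaled to 1 median Acta2 was 0.022 and Ccnd1 0.092. Acta2 was 0.094 with the replicate block and 0.00098 with array weights, where Cdkn1b was -0.11; Col1a1 was -0.093 with 2 or 3 array sets as a block. With 1 array left out the ranges were -0.18 to 0.09 for Acta2, -2.17 to 0.087 for Actb, -0.56 to 0.29 for Ccnd1, -0.23 to 0.33 for Cdkn1b, -0.59 to 0.67 for Col1a1, -0.038 to 0.42 for Nfkbia, -0.020 to 0.79 for Odc1, -0.202 to 0.297 for the GAPDH and -0.291 to 0.174 for the actin control difference. Of 27 list medians taken relative to all genes, 11 changed sign with 1 array left out, among them mRNA decay (-0.533 to 0.185), glycolysis (-0.0539 to 0.538), G1 and S phase (-0.198 to 0.0425), pericellular genes (-0.02 to 0.328) and heat shock (-0.116 to 0.153); with values as deposited that of cholesterol synthesis was 0.411 against 0.147. The cause was not tested. Differences of probe sets near the floor are understated.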
